A study of Arabidopsis thaliana with 6 samples.

Results

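Seedlings of Arabidopsis thaliana, 9 days old, were compared at 9 genes of flavonoid and anthocyanin synthesis, out of 22746 probe sets on the ATH1 array once controls were set aside. The members were chosen by pathway role, with earlier results of these data known. They were 2 early enzymes (CHS and F3H), 6 late enzymes or carriers (DFR, UF3GT, AT4G14090, UGT78D2, AT5MAT and GSTF12) and 1 regulator (PAP1). The groups were atsf1-2, a mutant of the splicing factor gene AtSF1 in the Col-0 background, and wild-type Col-0, with 3 biological replicates and 1 array each. Whole seedlings had been kept for 9 days at 23 C, with 16 h of light and 8 h of dark, on agar plates without any treatment. The labels do not say what lesion the atsf1-2 allele carries, and AtSF1 itself is not analysed here, so the genotypes were not checked against its transcript.

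Flavonoids are made from the phenylpropanoid precursor coumaroyl-CoA. Chalcone synthase and flavanone 3-hydroxylase act early and feed both the colourless flavonols and the red and purple anthocyanins, while dihydroflavonol reductase and the enzymes after it lead into the anthocyanin branch. Glycosyltransferases and acyltransferases then decorate the pigment, and a glutathione transferase helps it into the vacuole. In Arabidopsis seedlings the late genes are known to be switched on by a complex of MYB, bHLH and WD40 proteins, of which PAP1 is a MYB member.

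Each probe set gave 1 MAS5 signal per array, on a linear scale. For 5 members, DFR (AT5G42800, 249215_at), UF3GT (AT5G54060, 248185_at), AT4G14090 (245624_at), UGT78D2 (AT5G17050, 246468_at) and AT5MAT (AT3G29590, 256924_at), the platform annotation paired the probe set with that gene alone. The other 4, CHS (AT5G13930, 250207_at), F3H (AT3G51240, 252123_at), GSTF12 (AT5G17220, 250083_at) and PAP1 (AT1G56650, 245628_at), were assigned to their genes by the choice of members, and the annotation used here does not list them. Array medians were 165, 181 and 171 in atsf1-2 and 192, 195 and 182 in Col-0, so each mutant median lay below each Col-0 median. The deposited signals were not rescaled for this before the fit. The 3' to 5' signal ratio of the actin control, a measure of RNA integrity that rises as 5' signal is lost, differed among arrays. It was 2.47 on atsf1-2 replicate 3 and 2.14 on Col-0 replicate 2, against 3.36 to 3.63 on the other arrays. The same ratios of the GAPDH and Ubq controls were lowest on Col-0 replicate 2 (0.896 and 1.22), but atsf1-2 replicate 3 (1.09 and 1.31) lay among the other arrays. Why these 2 arrays differed was not tested. Fits without both arrays are given for each call of a gene named here that they ended. In whole seedlings, a change in the share of pigmented cells and a change in transcript per cell cannot be told apart.

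The comparison asked which steps of the pathway differed when AtSF1 was mutated. Both early genes and 3 late genes, DFR, UF3GT and AT4G14090, were higher in atsf1-2, while PAP1 was dim and overlapped between genotypes. Of the 9 members, 7 were bright enough to be tested, 5 rose and none fell (limma, adjusted p under 0.05 over 13648 probe sets), and the log2 fold changes of all 9 were above 0. Over all tested probe sets 3.00% were called higher and 5.19% lower, 8.19% in all. In numbers that was 409 higher and 709 lower, a balance that median centring of the arrays turned to 755 higher and 362 lower. At an unadjusted p under 0.05, all 7 tested members were higher and 0 lower, against 9.50% higher and 16.5% lower over all tested probe sets. All 3 atsf1-2 arrays exceeded all 3 Col-0 arrays for 8 members, against 9.47% of all probe sets and 12.1% of those kept by the filter. Since the members were chosen with earlier results of these data known, these shares give scale and do not test the set. The filter kept probe sets with a geometric mean signal of at least 104.44 over the 6 arrays. Each of the 7 kept members also exceeded that value in Col-0 alone, where the lowest geometric mean was 148 for UF3GT, so none was kept only because of its level in the mutant.

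CHS, the chalcone synthase that makes the first flavonoid, rose 1.68-fold. Its signal was 11570, 11485 and 8964 in atsf1-2, against 6419, 5748 and 6825 in Col-0. The lowest mutant array, replicate 3, thus still exceeded the highest Col-0 array, also replicate 3. The means were 10673 ± 1481 in atsf1-2 and 6331 ± 544 in Col-0 (SD, n = 3 each), which on the log2 scale is a difference of 0.75 ± 0.13 (SE; adjusted p = 0.00812 by limma). CHS passed the threshold under all 16 alternative settings, with adjusted p from 0.000332 to 0.0459.

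F3H, the flavanone 3-hydroxylase that makes dihydroflavonols, rose 1.45-fold. Its signal was 3613, 3390 and 3137 in atsf1-2, against 2457, 2190 and 2350 in Col-0. The genotypes did not overlap, and the arrays of each lay close together, with a log2 SD of 0.10 in atsf1-2 and 0.084 in Col-0. On the log2 scale F3H differed by 0.53 ± 0.12 (SE; adjusted p = 0.0226 by limma). The call ended in fits without atsf1-2 replicate 1 (adjusted p = 0.0842) or without Col-0 replicate 1 (0.0746), replicate 2 (0.0748) or replicate 3 (0.083), where the log2 fold change stayed between 0.48 and 0.57, and in the fit with the replicate number as a block (0.065).

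DFR, the dihydroflavonol reductase at the entry to the anthocyanin branch, rose 2.27-fold. Its signal was 512, 611 and 666 in atsf1-2, against 381, 269 and 174 in Col-0. The Col-0 arrays were more widely spread than the mutant arrays, and replicate 1 of Col-0 came nearest to the mutant range without entering it. The log2 difference of DFR was 1.18 ± 0.25 (SE; adjusted p = 0.0189 by limma). Without Col-0 replicate 2 it was 1.20 (adjusted p = 0.0634), without Col-0 replicate 3 it was 0.89 (0.0514), and without both arrays of low actin ratio it was 1.12 (0.0692).

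UF3GT, a glycosyltransferase that adds a further sugar to anthocyanins, had the highest fold change of the 9 members, 2.44-fold. Its signal was 413, 384 and 299 in atsf1-2, against 230, 151 and 93.9 in Col-0. Replicate 3 was the lowest array in both genotypes, and the groups did not overlap. The log2 difference of UF3GT was 1.29 ± 0.28 (SE; adjusted p = 0.0234 by limma). The call ended without atsf1-2 replicate 1 (adjusted p = 0.0879) or replicate 2 (0.0531), and without Col-0 replicate 2 (0.0709) or replicate 3 (0.0628).

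AT4G14090, the glucosyltransferase that acts on the 5-position of anthocyanins, rose 1.88-fold. Its signal was 302, 321 and 360 in atsf1-2, against 215, 168 and 146 in Col-0, and the gap between the nearest arrays of the genotypes was the widest among the members, at 0.49 on the log2 scale. The log2 difference of AT4G14090 was 0.91 ± 0.19 (SE; adjusted p = 0.0177 by limma). The adjusted p was 0.0514 without atsf1-2 replicate 1, 0.0585 without Col-0 replicate 2, 0.0749 without Col-0 replicate 3, 0.0509 without both arrays of low actin ratio and 0.0513 with the replicate block, so each of these fits ended the call.

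UGT78D2 and GSTF12 fell just outside the threshold, with the same adjusted p to 3 digits. UGT78D2, which glucosylates both flavonols and anthocyanins at the 3-position, had signals of 1305, 1561 and 1526 in atsf1-2, against 1109, 1009 and 1060 in Col-0. Its log2 difference of 0.46 ± 0.13 (SE; adjusted p = 0.0507 by limma) was the smallest among the late members. GSTF12, the glutathione transferase needed for anthocyanin to reach the vacuole, had signals of 447, 471 and 432 in atsf1-2, against 373, 231 and 166 in Col-0. The mutant arrays of GSTF12 were nearly equal, while its Col-0 arrays were spread over more than a log2 unit. On the log2 scale GSTF12 differed by 0.89 ± 0.25 (SE; adjusted p = 0.0507 by limma), and without Col-0 replicate 1, the Col-0 array nearest to the mutant, it was 1.20 (adjusted p = 0.0146). Without Col-0 replicate 3, the Col-0 array farthest from the mutant, it was 0.62 (0.168), without Col-0 replicate 2 it was 0.86 (0.128), and without both arrays of low actin ratio it was 0.88 (0.126). Median centring, quantile normalization, a pseudocount and a term for the arrays of low actin ratio each brought both genes under the threshold, and array weights and the 60th percentile filter did so for UGT78D2. Under the remaining alternatives neither passed, apart from GSTF12 without Col-0 replicate 1, and the adjusted p of UGT78D2 reached 0.157 without Col-0 replicate 3.

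AT5MAT, the malonyltransferase that acylates the sugar at the 5-position, was too dim to pass the filter. Its signal was 74.6, 60.4 and 104 in atsf1-2, against 46.9, 52.7 and 45.8 in Col-0. The genotypes did not overlap, but the mutant arrays were uneven, and the log2 difference fitted without a filter was 0.68 ± 0.36 (SE; adjusted p = 0.367 by limma). Its 95% confidence interval ran from -0.12 to 1.48, which leaves room both for no difference and for one as large as that of UF3GT.

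PAP1, the MYB activator of the late genes, was also under the filter. Its signal was 75.0, 109 and 121 in atsf1-2, against 124, 104 and 53.5 in Col-0. The highest and the lowest of the 6 arrays were both Col-0 arrays, and the 3 mutant arrays lay between them. The log2 difference without a filter was 0.17 ± 0.37 (SE; adjusted p = 0.87 by limma), and the 95% confidence interval of -0.65 to 0.99 does not exclude a change of the size seen for AT4G14090. The sign rested on 1 array: without Col-0 replicate 3 the log2 fold change was -0.19 (adjusted p = 0.868).

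**Figure D1:**
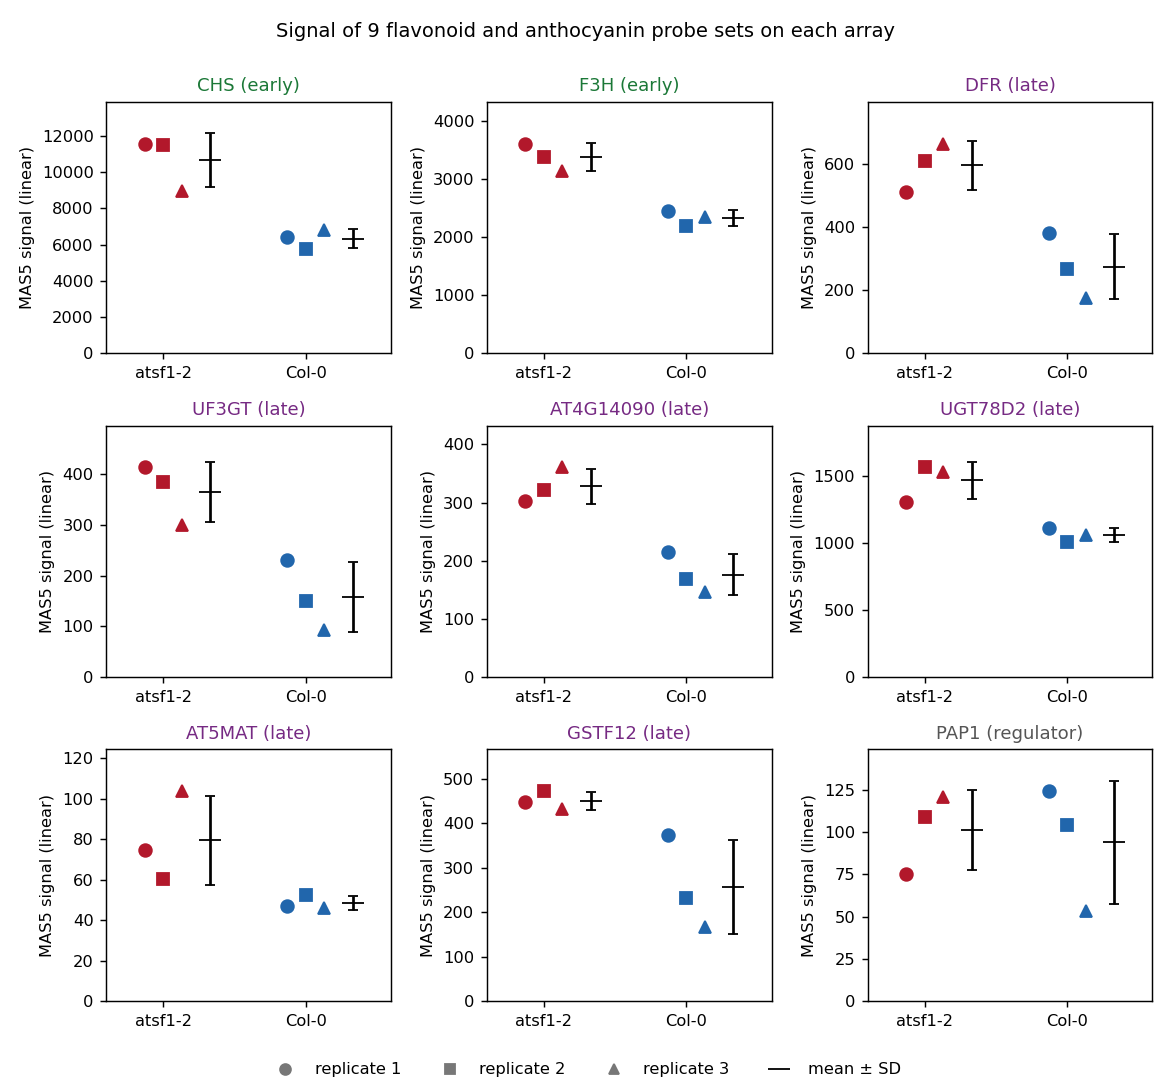
MAS5 signal (linear axis from 0) of each of the 9 probe sets on the 3 atsf1-2 arrays (red, left) and the 3 Col-0 arrays (blue, right), with symbols for replicates and black bars for the mean ± SD (n = 3). The genotypes are apart in 8 panels and overlap for PAP1, where the atsf1-2 arrays read 75.0 to 121 and the Col-0 arrays 53.5 to 124.

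Late genes had a higher median fold change than early genes, but their intervals overlapped. The median log2 fold change was 0.90 over the 6 late members fitted without a filter and 0.64 over the 2 early members, against -0.049 over all probe sets in the same fit. The 95% confidence intervals of CHS (0.47 to 1.03) and DFR (0.64 to 1.73) shared most of the range of CHS, and F3H (0.28 to 0.79) covered most of the range of UGT78D2 (0.18 to 0.75). F3H shared only the top of its range with DFR and with UF3GT (0.66 to 1.91). The steps were not cleanly ordered: late UGT78D2 (0.46) lay below both early genes, and late AT5MAT (0.68) below CHS (0.75). The log2 ratio of DFR to CHS, set to 0 at the Col-0 mean, was 0.096, 0.36 and 0.84 in atsf1-2, against 0.52, 0.18 and -0.70 in Col-0. These ratios overlapped between genotypes, so a stronger change of DFR than of CHS was not resolved with 3 arrays a genotype. The mean of the 6 late members minus that of the 2 early members, each relative to its Col-0 mean, was 0.089, 0.18 and 0.51 in atsf1-2, against 0.30, 0.11 and -0.42 in Col-0. This difference overlapped between genotypes as well, and no test was run on it.

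**Figure D2:**
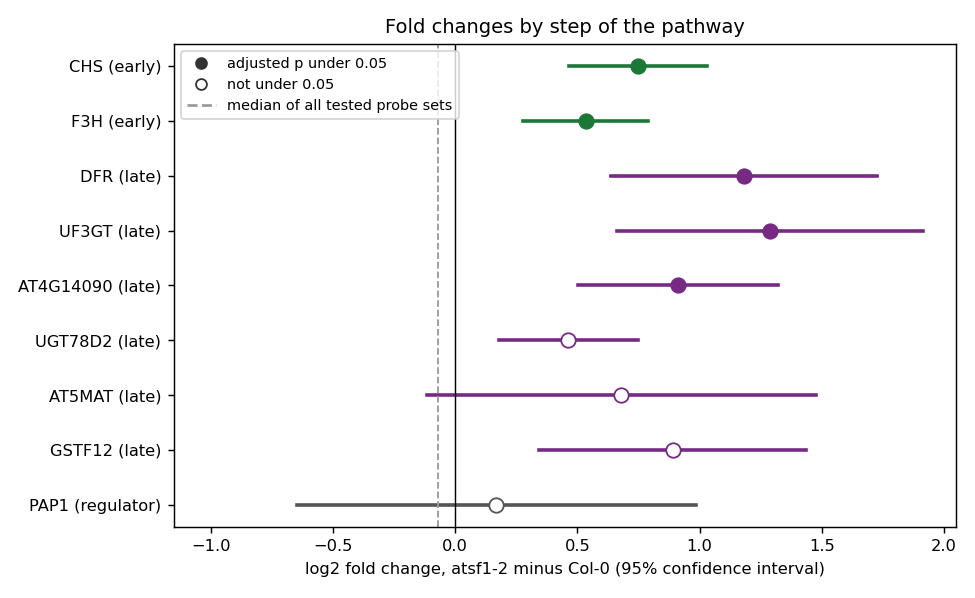
log2 fold change, atsf1-2 minus Col-0, of each member (points) with its 95% confidence interval from limma (lines), from early steps at the top to the regulator at the bottom. Filled points passed an adjusted p of 0.05, and the dashed line is the median of all tested probe sets, -0.070; the intervals of AT5MAT and PAP1 span 0.

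The members also differed in how much they varied among wild-type seedling samples. Within Col-0, the log2 SD was 0.57 for DFR, 0.65 for UF3GT, 0.59 for GSTF12 and 0.64 for PAP1, each at or above the 98.6th percentile of tested probe sets, whose median was 0.15. The early genes were steadier than these, with 0.13 for CHS and 0.084 for F3H, at the 39.9th and 21.6th percentiles. Other late members were steadier too. AT4G14090 had 0.28 (percentile 83.4), AT5MAT 0.11 (percentile 31.9) and UGT78D2 0.068 (percentile 15.2), so the spread did not divide early from late members. Within atsf1-2, DFR had a log2 SD of 0.19, UF3GT 0.24, GSTF12 0.064 and PAP1 0.36, against a median of 0.21 over tested probe sets. The percentiles compare with tested probe sets of any brightness, although PAP1 and AT5MAT were under the filter. In Col-0 the geometric mean signal was 261 for DFR, 148 for UF3GT, 243 for GSTF12 and 88.5 for PAP1. It was 6315 for CHS, 2330 for F3H and 1059 for UGT78D2, while the steadier AT4G14090 (174) and AT5MAT (48.4) were dim too. The part of brightness in the spread, and a difference in spread between the genotypes, were not tested.

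The spread within Col-0 ran the same way in several members. In DFR, UF3GT, AT4G14090, GSTF12 and PAP1, Col-0 replicate 1 had the highest and Col-0 replicate 3 the lowest signal of that genotype, an order found in 11.0% of tested probe sets. The order was read from the members themselves, and PAP1 was under the filter, so that share does not test it. Within atsf1-2, DFR, AT4G14090 and PAP1 had replicate 3 highest and replicate 1 lowest, as did 18.9% of tested probe sets. CHS, F3H, UGT78D2 and AT5MAT had neither of these orders, and UF3GT and GSTF12 had only the one within Col-0. Averaged over the 6 late members, the log2 signal relative to the Col-0 mean was 0.84, 0.89 and 0.98 in atsf1-2, against 0.35, -0.00017 and -0.35 in Col-0. For the 2 early members the same averages were 0.75, 0.70 and 0.47 in atsf1-2, against 0.050, -0.11 and 0.062 in Col-0. The actin ratios of Col-0 replicates 1, 2 and 3 were 3.52, 2.14 and 3.36, and the part of RNA integrity in this order was not tested.

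**Figure D3:**
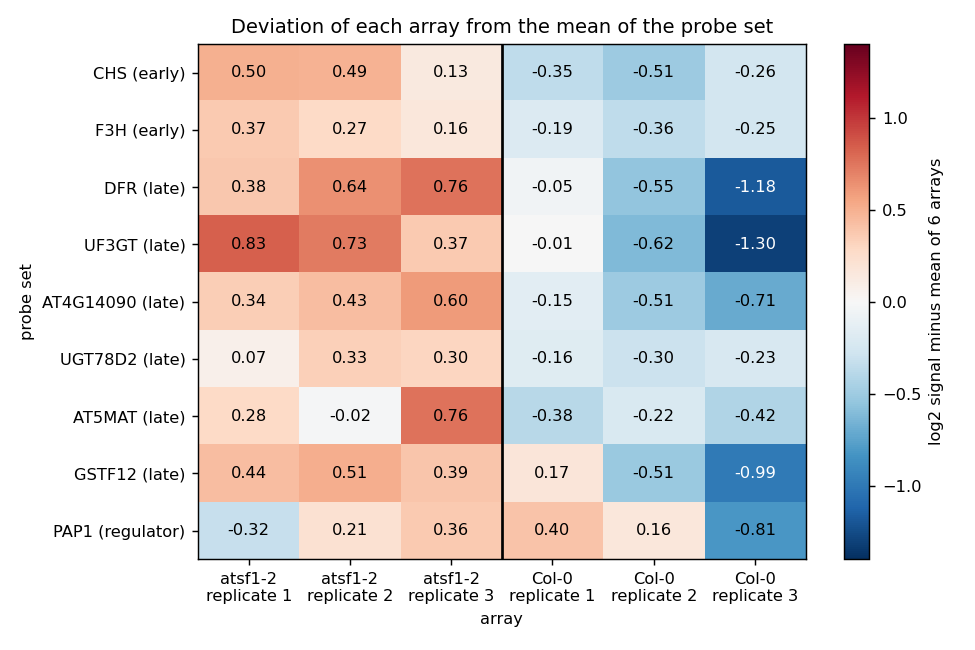
Deviation of the log2 signal of each array (columns, atsf1-2 left of Col-0) from the mean of the 6 arrays for each probe set (rows), with the value printed in each cell and red above and blue below the mean. The lowest cells are UF3GT at -1.30 and DFR at -1.18, both on Col-0 replicate 3, while the Col-0 cells of CHS stay between -0.51 and -0.26.

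Few other genes of the pathway had a probe set that the annotation paired with them alone. Among 68 loci listed for phenylpropanoid and flavonoid synthesis, its regulators and the lignin and sinapate branches, 6 beyond the members had one, 4 of these could be tested, and 0 passed in either direction (limma; 8.19% of all tested probe sets passed). At an unadjusted p under 0.05, CHIL and UGT78D1 were higher and ALDH2C4 lower, where 26.0% of all tested probe sets reached that level in either direction. CHIL, a chalcone isomerase-like protein that aids the early steps, had 1487, 1256 and 1305 in atsf1-2, against 1020, 950 and 1060 in Col-0. Its genotypes did not overlap, and on the log2 scale it differed by 0.42 ± 0.13 (SE; adjusted p = 0.0709 by limma). CHIL passed under 3 of 16 alternatives, array weights (adjusted p = 0.0186), a term for the arrays of low actin ratio (0.0293) and median centring (0.0427), and its adjusted p reached 0.14 with the replicate block and 0.205 without Col-0 replicate 1. UGT78D1, a rhamnosyltransferase of flavonols, differed by 0.35 ± 0.15 on the log2 scale (SE; adjusted p = 0.178 by limma). In the lignin and sinapate branches, which share early precursors with the flavonoids, HCT had -0.016 ± 0.14 and ALDH2C4, an enzyme of ferulate and sinapate synthesis, had -0.29 ± 0.13 on the same scale (SE; adjusted p = 0.958 and 0.181 by limma). BAN, the anthocyanidin reductase of seed coat tannins, and UGT78D3 were under the filter, with signals of at most 7.4 on any array. No probe set was paired with 1 gene among the 8 loci of the general phenylpropanoid steps or the 6 repressors of the branch, and of 18 activators only PAP1 is covered.

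Tissue markers gave these values beside the members. Among root markers, EXPA7 read 202 to 234 in atsf1-2 and 190 to 266 in Col-0, EXPA18 read 421 to 457 in atsf1-2 and 391 to 529 in Col-0, and PYK10 read 15216 to 16161 in atsf1-2 and 14678 to 16811 in Col-0. None of the 3 passed the threshold (limma; 8.19% of all tested probe sets passed), and a difference in the share of root tissue was not tested. These root markers were added after their values were seen. The summed signal of the 3 ran from 15906 to 16812 in atsf1-2 and from 15415 to 17545 in Col-0, but it is nearly that of PYK10 alone. Among green-tissue genes, LHCB4.3 had 2140, 1812 and 2076 in atsf1-2, against 1416, 1110 and 1604 in Col-0, and RCA read 19727 to 26679 in atsf1-2 and 18391 to 22300 in Col-0. Their sum, nearly that of RCA alone, ran from 21868 to 28755 in atsf1-2 and from 19807 to 23410 in Col-0. LHCB4.3, a light-harvesting protein, was higher by 0.56 ± 0.15 on the log2 scale (SE; adjusted p = 0.0487 by limma). That call ended when any 1 array was left out (adjusted p from 0.0539 to 0.142) and without both arrays of low actin ratio (0.39, adjusted p = 0.0941). It also ended with no filter (adjusted p = 0.0673), quantile normalization (0.0544), eBayes without trend (0.0816) and the replicate block (0.0701). RCA, the Rubisco activase, had 0.16 ± 0.13 (SE). The part of green-tissue markers in the members' differences was not tested. No epidermis marker was paired with a probe set, although anthocyanin is known to collect in epidermal and subepidermal cells, and the 1 measured seed coat marker, BAN, read at most 7.4.

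None of the tested genes beside the members in the genome passed the threshold. Of 36 protein-coding neighbours within 2 places of a member in the TAIR10.1 gene order, 8 could be tested and 0 passed in either direction (limma; 8.19% of all tested probe sets passed, a share that gives less than 1 of 8). At an unadjusted p under 0.05 there were 2, 1 higher and 1 lower, where the share over all tested probe sets was 26.0%. The log2 fold changes of the 8 ran from -0.55 ± 0.26 for AT5G17210 beside GSTF12 to 0.52 ± 0.22 for AT3G29630 beside AT5MAT (SE; adjusted p = 0.205 and 0.167 by limma).

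Likeness to DFR was measured as the Euclidean distance between log2 profiles over the 6 arrays, each centred on its own mean. Among 7238 tested genes outside the pathway, AT5G10040 (0.46), AT3G49320 (0.47), AT5G40690 (0.49), AT5G09570 (0.51) and AT5G02580 (0.57) were nearest. Of the members, GSTF12 lay at 0.49, AT4G14090 at 0.55 and UF3GT at 0.62, with 2, 4 and 8 of those genes nearer to DFR than they were. CHS (1.17), F3H (1.18) and UGT78D2 (1.17) were farther away, with 211, 225 and 219 genes nearer. AT5G10040 had 1627, 1404 and 1607 in atsf1-2, against 969, 825 and 534 in Col-0, with Col-0 replicate 1 highest and replicate 3 lowest, as for DFR. It was picked for its likeness to DFR over these same arrays, so the shared pattern is not a separate result.

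The members differed in how many settings kept them past the threshold. Over the alternatives that gave a value, DFR passed under 13 of 16, F3H under 11 of 16, UF3GT under 11 of 15, AT4G14090 under 10 of 15, UGT78D2 under 6 of 16 and GSTF12 under 5 of 16, while CHS passed under 16 of 16. None of these 7 changed sign under any of them. When 1 array was left out, the number of members called higher ran from 1, without Col-0 replicate 2 or replicate 3, to 5. In both fits with 1 call that call was CHS. Calls were also lost over all tested probe sets, where those higher fell from 409 to 154 without Col-0 replicate 2 and 142 without replicate 3.

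**Figure D4:**
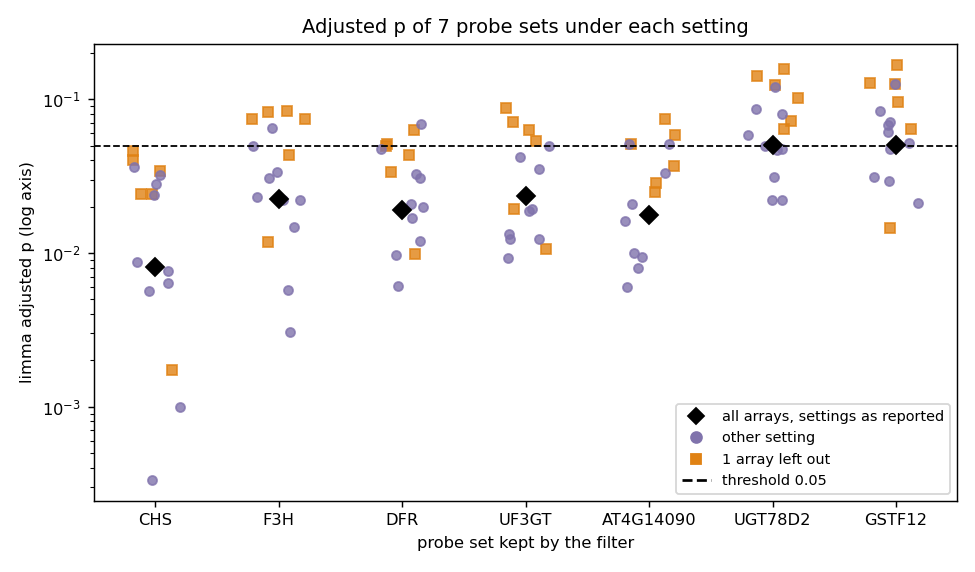
limma adjusted p (log axis) of the 7 members kept by the filter, with all arrays (black diamonds), under another setting (purple circles) or with 1 array left out (orange squares); sideways scatter is for legibility. Every point of CHS lies under the dashed threshold of 0.05, and the highest points of GSTF12 and UGT78D2 reach 0.168 and 0.157.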

How the data were processed

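Per the submitters' processing notes, the authors made the deposited signal intensity of each probe set with MAS5, in version 1.2 of Affymetrix Expression Console. The values are linear, and settings for background, detection and scaling are not stated. Per the labels' protocols, 300 ng of total RNA were labelled with biotin. Titles gave the genotype of each sample. Of 22810 probe sets, 64 controls were left out. Signals were taken to log2, and the 13648 probe sets at or above the 40th percentile of mean log2 signal were tested with limma 3.58.1 in R 4.3.3 (lmFit, eBayes with trend, two-sided). Benjamini-Hochberg adjustment ran over all of them, with a threshold of 0.05. AT5MAT and PAP1 were fitted with no filter. The fit was tested on simulated data. With 3 arrays a genotype, precision is limited by their number.

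The platform annotation named 1 gene for 13513 probe sets, several for 503 and none for 8730. RefSeq's table of TAIR10.1 gave symbols and gene order. The members and lists were chosen with earlier results of these data known. The text names all members, the tested list genes past the threshold or up to 2 a list with the smallest p, and the 5 genes nearest to DFR. LHCB4.3, RCA, BAN, UGT78D3, AT3G29630, AT5G17210 and the root markers were added after their values were seen. Alternatives were no filter, the 60th percentile, a pseudocount of 38.3, quantile normalization, median centring, eBayes without trend, array weights, the replicate block, leaving out or modelling the arrays of low actin ratio, and leaving out each array.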

Additional observations from a re-analysis of the deposited data

How the results depend on the processing

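The count of members called higher, 5, was 3 with the replicate block, 3 without both arrays of low actin ratio and 1 to 5 with 1 array left out. It was 4 to 7 under the other settings, and no member was called lower under any. The median log2 fold change of the early members moved to 0.78 with median centring, which shifted the median of all tested probe sets by 0.14. The late members kept by the filter, which leaves out AT5MAT, had a median of 0.91 with all arrays and 0.78 to 1.20 without single arrays. Early members had medians of 0.58 to 0.73 without single arrays. PAP1 ran from -0.19, without Col-0 replicate 3, to 0.41 and never passed. Over all probe sets 409 were higher and 709 lower. Array weights gave 947 higher and 1713 lower, a term for the arrays of low actin ratio 892 and 1511, median centring 755 and 362, the replicate block 171 and 263, no filter 267 and 439, and leaving out 1 array 130 to 463 and 151 to 777. Those higher numbered 271 by eBayes without trend. HCT turned positive with median centring (0.13), array weights (0.028) and without both arrays of low actin ratio (0.053), and ran from -0.10 to 0.11 with 1 array left out. RCA turned negative with quantile normalization (-0.027). These settings for list genes were chosen after seeing the data. The cause was not tested, except that leaving out arrays leaves fewer samples. Deviations of arrays of the same replicate number correlated at 0.102, -0.186 and -0.209, so the numbers were not taken as pairs. The highest correlation between arrays of different genotype, 0.324, joined atsf1-2 replicate 3 and Col-0 replicate 2, the arrays of low actin ratio. With the replicate block F3H (adjusted p = 0.065) and AT4G14090 (0.0513) did not pass.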
